A study of Mus musculus with 2 samples.

Results

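The enzymes described here carry pyruvate into the tricarboxylic acid (TCA) cycle, turn the cycle, and pass reducing equivalents between the cytosol and the mitochondrion. The members are 35 genes listed by their function, and 34 of them have a row among the 21542 genes of the deposited table. Pdk4, which encodes a pyruvate dehydrogenase kinase that glucocorticoids and fasting induce in several tissues, has no row and counts as not measured. RNA was sequenced from MIN6 cells, a mouse insulinoma line (strain C57BL/6) that secretes insulin and stands in for beta cells. One group was transfected with a control vector and the other with a vector expressing GR, the glucocorticoid receptor encoded by Nr3c1, using a lipid reagent and a glucose-rich medium with sodium pyruvate and serum. The vector's promoter, the receptor's species of origin, the time to harvest and whether a ligand was added are not stated in the labels. There was 1 library per group, so differences could not be checked between replicates.

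In the beta cell, glucose carbon is sent to mitochondria with little loss as lactate. Pyruvate enters the cycle as acetyl-CoA through the pyruvate dehydrogenase complex, or as oxaloacetate through pyruvate carboxylase, and both routes are active in these cells. NADH made in the cytosol is reoxidised by the malate-aspartate and glycerol phosphate shuttles, and malate and citrate that leave the mitochondrion can return to pyruvate with the formation of NADPH, a coupling factor for insulin secretion.

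Reads over genes came to 18537326 (control) and 18525668 (GR). Nr3c1, the mouse gene of the receptor, had 2645 and 5202 reads, a fold of 1.97 (95% interval 1.88 to 2.07). Any plasmid reads that match it are counted together with those of the endogenous gene. As the species of the receptor on the vector is not stated, the share of plasmid reads that match is unknown. All 11 beta cell markers listed had at least 100 reads in the control library, with sums of 938323 and 889201 reads. Of 6 alpha, delta and PP cell markers 3 were in the table, with 638 and 746 reads, mostly glucagon (Gcg, 537 and 623). Fibroblast and endothelial markers (3 of 5 in the table) summed to 70 and 76 reads and immune markers (2 of 3) to 26 and 22. Of 5 exocrine markers only Krt7 was in the table, with 2429 and 2166 reads. Their part in the results below was not tested, and fewer cells of a type cannot be told apart from less RNA per cell.

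Transcripts of the 34 measured enzymes differed little between the libraries. Together they took 81617 reads with the control vector, against 81801 with the GR vector, which is 0.440% and 0.442% of each library and a fold of 1.005 (95% counting interval 0.9954 to 1.015). Summed over each of 6 roles, the interval of the fold left out 1 for the pyruvate dehydrogenase complex and for its kinases and phosphatase, narrowly in both, and included 1 for the other 4 roles. These sums were not corrected for the trend with GC content described below, and no sums over other sets of genes were set beside them. With that trend removed, the median log2 fold change in the complex went from 0.0467 to 0.0167. In its kinases and phosphatase the median went from 0.1102 to 0.0766. Folds of the GR library over the control library, taken from reads and library sizes scaled by TMM (trimmed mean of M-values), ran from 0.920 for Dlat to 1.12 for Pdp1. The median log2 fold change was 0.02 over the members, with 20 members above 0 and 14 below, and 0.0042 over all 21542 genes. The median absolute log2 fold change was 0.05 over the members, and 0.06 over the 10067 genes read at least as often as the least read member.

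Of the 34 members, 1 passed an exact two-sided binomial test of its reads, adjusted over all genes by the Benjamini-Hochberg method (called the library test here). That member was Dld, and it was higher with the GR vector. The library test called 2.72% of all genes, 1.58% higher and 1.14% lower with the GR vector. It compares these libraries and not the conditions, and it covers counting error only. In 4 members the 95% interval of the fold left out 1, against 20.3% of the 10067 genes read at least as often as the least read member. The count past the library test is near its background share, and the count of intervals is below its own, so neither is a result about the members. The p-values of the authors' deposited table match an edgeR exact test run with an assumed dispersion. By the authors' deposited table's p-values, 0 members passed an adjusted p under 0.05 (0.0186% of all genes did), 0 had an unadjusted p under 0.05, and the lowest unadjusted p was 0.703, for Pdp1.

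**Figure D1:**
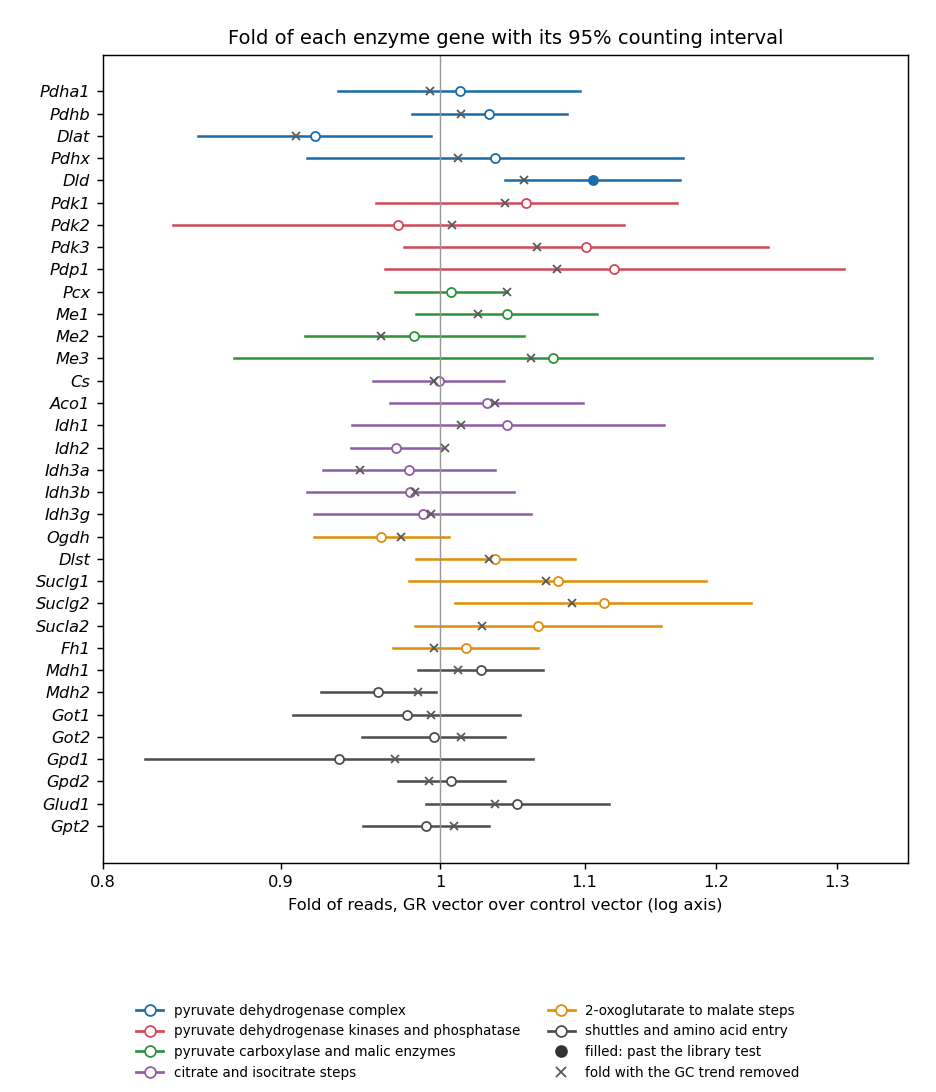
Fold of reads with the GR vector over the control vector (log axis) for the 34 measured genes, grouped by role, 1 library per group. Circles are folds, bars are exact 95% counting intervals, the filled circle is the 1 gene past the library test (Dld), and crosses are folds with the trend of GC content removed. Intervals of Dld and Suclg2 lie above 1 and those of Dlat and Mdh2 below 1.

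The sequences upstream of 4 members are shown because they frame the results that follow: Dld is the member past the library test, Dlat encodes a partner subunit that had the lowest fold, and Suclg1 and Aco1 are 2 of the 4 members with a match to the half-site that GR binds. Each is the 250 bases before the RefSeq start on GRCm38.p6, 5′ to 3′ on the gene's strand, and capitals mark every match to the motifs named in the next paragraph. Dld lies at chr12:31351472-31351721 (minus strand), Dlat at chr9:50659781-50660030 (minus strand), Suclg1 at chr6:73248255-73248504 (plus strand) and Aco1 at chr4:40143015-40143264 (plus strand). The deposited starts of Suclg1 (73248382) and Aco1 (40143081) fall within these windows, so part of each window lies inside the gene by the deposited positions. The half-site of Suclg1 and the 2 marked matches of Aco1 nearest its RefSeq start lie in that part. The half-site of Aco1 lies before it.
Dld: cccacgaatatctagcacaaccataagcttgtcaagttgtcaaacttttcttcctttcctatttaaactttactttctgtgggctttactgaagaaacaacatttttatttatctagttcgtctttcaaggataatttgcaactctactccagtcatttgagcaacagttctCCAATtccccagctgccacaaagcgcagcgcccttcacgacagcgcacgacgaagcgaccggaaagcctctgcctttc
Dlat: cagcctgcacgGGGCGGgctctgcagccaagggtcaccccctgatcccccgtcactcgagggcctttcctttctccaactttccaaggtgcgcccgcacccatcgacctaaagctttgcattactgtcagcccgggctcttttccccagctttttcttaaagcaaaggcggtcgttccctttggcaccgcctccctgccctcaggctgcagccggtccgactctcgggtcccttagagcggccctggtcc
Suclg1: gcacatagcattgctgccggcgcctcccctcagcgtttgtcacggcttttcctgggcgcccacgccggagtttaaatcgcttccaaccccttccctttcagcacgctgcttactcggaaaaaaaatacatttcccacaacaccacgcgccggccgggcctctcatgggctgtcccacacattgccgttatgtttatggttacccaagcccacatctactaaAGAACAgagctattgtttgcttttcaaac
Aco1: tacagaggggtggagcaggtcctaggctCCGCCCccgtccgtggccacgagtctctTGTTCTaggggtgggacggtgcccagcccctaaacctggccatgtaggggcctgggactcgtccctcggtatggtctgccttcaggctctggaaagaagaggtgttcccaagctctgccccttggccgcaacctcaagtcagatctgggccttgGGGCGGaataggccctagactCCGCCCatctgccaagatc

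Promoters from RefSeq matched 31 of the 35 members by symbol, with 42 starts in all, and were set beside all 32851 starts in the same table. On both strands, the full glucocorticoid response element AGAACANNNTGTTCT occurred before 0 of the 42 member starts and before 0.00913% of all starts. Its half-site TGTTCT, which the full element contains, occurred before 4 member starts (9.52%) and before 16.1% of all, in Idh1, Pdk1, Aco1 and Suclg1. Starts of 1 gene are counted singly in these shares, for members and for all, so 1 gene can count more than once. The E-box CACGTG, a core of carbohydrate response elements, preceded 5 member starts (11.9%), in Ogdh, Pdk2 and Pcx, and 6.02% of all starts. The CCAAT box preceded 45.2% and 33.8%, the GC box GGGCGG 54.8% and 32.7%, and the NRF1 site GCGCATGCGC 0 member starts and 0.782% of all. Dld has a CCAAT box from 78 to 74 bases before its start, and Dlat a GC box from 239 to 234 bases before. The 4 members with a half-site had folds of 1.05 (Idh1), 1.06 (Pdk1), 1.03 (Aco1) and 1.08 (Suclg1), and none of them passed the library test. A match of letters is a description and does not show binding.

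The pyruvate dehydrogenase complex joins the E1, E2 and E3 enzymes and makes acetyl-CoA from pyruvate. Dld encodes its E3 subunit, dihydrolipoamide dehydrogenase, which the 2-oxoglutarate and branched-chain complexes share (ENSMUSG00000020664, chromosome 12, 31331277 to 31351453, minus strand). It had 2243 reads in control and 2474 with GR, a fold of 1.11 (95% interval 1.04 to 1.17, library test adjusted p = 0.0299). Dld also had the lowest GC content of the 34 members (40.0%), and low-GC genes were higher with the GR vector across the table. With that trend removed its fold was 1.06 (0.998 to 1.12), with an adjusted p of 0.504 in the library test.

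Dlat encodes the E2 core, dihydrolipoamide acetyltransferase (chromosome 9, 50634633 to 50659780), and had 1370 and 1257 reads. Its fold of 0.920 (0.852 to 0.994) was the lowest of the members and did not pass the library test (adjusted p = 0.315). The fold of Dlat was 0.909 (0.841 to 0.982) with the GC trend removed, again short of the library test (adjusted p = 0.295). The decarboxylase subunits lay close to 1, with Pdha1 (E1 alpha) at 1212 and 1224 reads (fold 1.01, 0.935 to 1.097) and Pdhb (E1 beta) at 2937 and 3025 (fold 1.03, 0.982 to 1.09). Pdhx, which anchors E3 to the core, had 504 and 521 reads (fold 1.04, 0.916 to 1.17). Of the 5 subunits, 4 had folds above 1 and 1 below, and their summed reads were 8266 and 8501, a fold of 1.03 (1.001 to 1.063). Dld had the largest rise in reads, and the fall in Dlat offset part of the rise in the other 4. The rise of Dld, from 2243 to 2474 reads, was nearly as large as that of the sum. The sum therefore does not show a rise shared by the subunits. Pdha1 overlaps the end of Map3k15 (720 and 699 reads) on the opposite strand and shares 14.0% of its 31-base stretches with it, and no label says whether reads were counted by strand, so its count is uncertain.

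Pyruvate dehydrogenase kinases switch the complex off by phosphorylation and the phosphatase switches it on again. The kinase gene Pdk1 had 779 and 822 reads (fold 1.06, 0.958 to 1.17), Pdk2 364 and 353 (fold 0.973, 0.838 to 1.13) and Pdk3 521 and 572 (fold 1.101, 0.976 to 1.24). Pdp1, the catalytic subunit of the calcium-sensitive phosphatase, had 328 and 367 reads (fold 1.12, 0.964 to 1.31). These 4 genes together had 1992 and 2114 reads, a fold of 1.06 (1.001 to 1.132), and 0 of the 4 passed the library test. With the control reads of Pdk2, a fold of at least 1.254 would have been needed to pass it. Pdk1 made up 46.8% of the reads of the 3 measured kinases with the control vector (95% Clopper-Pearson interval 44.4 to 49.2) and 47.1% with the GR vector (44.7 to 49.4), Pdk2 21.9% and 20.2%, and Pdk3 31.3% and 32.7%. Per length the order was another one: Pdk3 held 48.6% and 50.7%, Pdk2 27.5% and 25.3%, and Pdk1, which has the longest transcript, 23.9% and 24.0%.

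Pyruvate carboxylase and the malic enzymes form the pyruvate-malate cycle. Pcx, the carboxylase gene, had 5639 and 5663 reads (fold 1.01, 0.9705 to 1.045). With the GC trend removed its fold was 1.05 (1.007 to 1.085), and it did not pass the library test with or without that correction. Me1, the cytosolic NADP-dependent malic enzyme, had 2126 and 2215 reads (fold 1.04, 0.984 to 1.11). As 36.9% of its 31-base stretches occur in another gene, most of them in the pseudogene Gm7049 (8 and 7 reads), its count is uncertain. Me2, a mitochondrial malic enzyme, had 1514 and 1484 reads (fold 0.983, 0.914 to 1.06), and the other mitochondrial form, Me3, 176 and 189 (fold 1.08, 0.872 to 1.33). Me3 was the least read member, and a fold of at least 1.38 would have been needed to pass the library test there. The interval of each malic enzyme's fold included 1. Pcx and the malic enzymes summed to 9455 and 9551 reads (fold 1.01, 0.985 to 1.042).

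Citrate synthase and the isocitrate dehydrogenases bring acetyl-CoA to 2-oxoglutarate. Cs had 4132 and 4115 reads (fold 0.999, 0.956 to 1.04), and Aco1, the cytosolic aconitase that also acts as an iron sensor, had 1896 and 1949 (fold 1.03, 0.967 to 1.099). The 3 subunits of the NAD-dependent isocitrate dehydrogenase had nearly the same fold: Idh3a 0.980 (2424 and 2368 reads), Idh3b 0.980 (1696 and 1658) and Idh3g 0.988 (1516 and 1494). With the GC trend removed the 3 folds lay farther apart, at 0.948, 0.983 and 0.994. With the control vector these subunits had 25.8, 26.7 and 30.2 RPKM (reads divided by gene length and library size, computed here). With the GR vector they had 25.2, 26.2 and 29.9 RPKM. The control intervals of Idh3a (24.7 to 26.8) and Idh3g (28.7 to 31.8) did not overlap.

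Of the NADP-dependent forms, Idh2 works in the mitochondrion and Idh1 in the cytosol. Idh2 had 8638 and 8365 reads, the most of any member, with a fold of 0.971 (0.942 to 1.00). Idh1 had 731 and 762 reads (fold 1.05, 0.943 to 1.16). Idh2 thus held 92.2% of the reads of the pair with the control vector (91.6 to 92.7) and 91.7% with the GR vector (91.1 to 92.2). Of these 7 genes, 2 had folds above 1 and 5 below, and 0 passed the library test. Their sums were 21033 and 20711 reads (fold 0.988, 0.969 to 1.007). The fold of Idh2 was 1.00 with the GC trend removed.

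The next steps run from 2-oxoglutarate to malate. The 2-oxoglutarate dehydrogenase complex takes its first subunit from Ogdh, with 3957 and 3795 reads (fold 0.962, 0.920 to 1.01), and its core from Dlst, with 2791 and 2886 (fold 1.04, 0.984 to 1.09). Succinyl-CoA ligase pairs the alpha subunit from Suclg1 with a beta subunit that fixes the nucleotide used, GDP for Suclg2 and ADP for Sucla2. All 3 ligase genes had folds above 1. Suclg1 had 788 and 849 reads (fold 1.08, 0.980 to 1.19) and Sucla2 1150 and 1223 (fold 1.07, 0.983 to 1.16). Suclg2 (chromosome 6, 95473009 to 95718800) had 788 and 875 reads, a fold of 1.11 (1.01 to 1.23), and did not pass the library test (adjusted p = 0.3004). Its interval included 1 with the GC trend removed (fold 1.09, 0.990 to 1.203), and 20.1% of its 31-base stretches occur in Gm15163 (70 and 55 reads). Suclg2 held 40.7% of the reads of the beta pair with the control vector (38.5 to 42.9) and 41.7% with the GR vector (39.6 to 43.9), and the intervals overlap. Fumarase, from Fh1, had 3359 and 3405 reads (fold 1.02, 0.969 to 1.07). The 6 genes of these steps summed to 12833 and 13033 reads (fold 1.02, 0.994 to 1.044).

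The malate-aspartate shuttle uses a cytosolic and a mitochondrial form of malate dehydrogenase and of aspartate aminotransferase. Mdh1, the cytosolic dehydrogenase, had 4524 and 4631 reads (fold 1.03, 0.985 to 1.07). Mdh2, the mitochondrial form that also closes the cycle (chromosome 5, 135778480 to 135790398), had 5467 and 5232 reads (fold 0.960, 0.924 to 0.997) and did not pass the library test (adjusted p = 0.318). Its fold was 0.985 (0.949 to 1.02) with the GC trend removed. Mdh1 held 45.3% (44.3 to 46.3) of the reads of the pair with the control vector and 47.0% (46.0 to 47.9) with the GR vector. Of the pairs, this was the closest to separate intervals. Overlap of intervals is no test of a difference, and the difference between the shares was not tested. The shares were not corrected for GC content, which was 47.2% in Mdh1 and 54.8% in Mdh2. Per length Mdh1 held 53.45% and 55.12%, so the order of the pair was reversed. Got1, the cytosolic aminotransferase, had 1410 and 1375 reads (fold 0.978, 0.907 to 1.05), and Got2, the mitochondrial one, 3434 and 3409 (fold 0.996, 0.949 to 1.04). Got1 held 29.1% and 28.7% of the reads of its pair, and 43.8% and 43.4% per length. As 30.9% of the 31-base stretches of Got2 occur in other genes, its count is uncertain.

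Of the pair Gpd1 and Gpd2 in the glycerol phosphate shuttle, the mitochondrial enzyme was the far more abundant transcript. Gpd2 had 6156 and 6183 reads (fold 1.01, 0.972 to 1.04) and Gpd1, the cytosolic enzyme, 503 and 469 (fold 0.935, 0.823 to 1.06). Gpd2 held 92.4% of the reads of the pair with the control vector (91.8 to 93.1) and 92.9% with the GR vector (92.3 to 93.6). Per length it held 84.7% and 85.6%. The related gene Gpd1l, not a member, had 977 and 1012 reads and is left out of these shares. Amino acids enter through glutamate dehydrogenase and alanine aminotransferase. Glud1 had 2084 and 2186 reads (fold 1.05, 0.990 to 1.12) and Gpt2, the mitochondrial alanine aminotransferase, 4460 and 4406 (fold 0.991, 0.9501 to 1.033). Of these 8 shuttle and amino acid genes, 3 had folds above 1 and 5 below, and 0 passed the library test. Their sums were 28038 and 27891 reads (fold 0.998, 0.981 to 1.014).

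**Figure D2:**
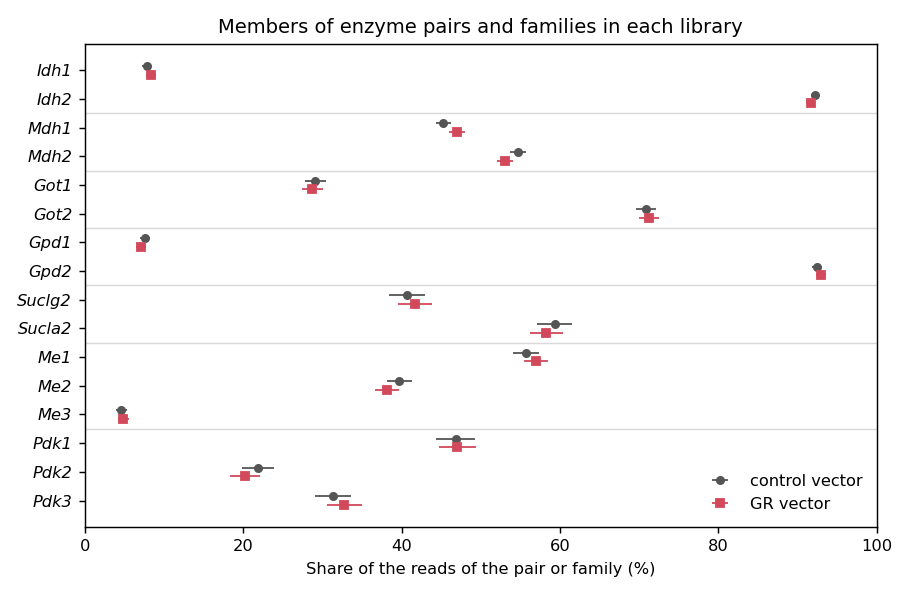
Share of the reads of each enzyme pair or family (%) taken by each gene, for the control vector (circles) and the GR vector (squares), 1 library each. Bars are exact 95% Clopper-Pearson intervals, and those of the 2 libraries overlap for every gene shown.

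Levels per length spread far more widely between genes than between libraries. In RPKM, Idh2 stood highest at 179.9 (95% counting interval 176 to 184) with the control vector, against 174.7 (171 to 178) with the GR vector. It was followed by Mdh1 (95.0 and 97.5), Mdh2 (82.7 and 79.4), Pcx (65.5 and 66.0), Fh1 (53.4 and 54.3) and Gpd2 (50.7 and 51.0), whose order was the same in both libraries. In the middle stood Gpt2 (42.6 and 42.2), Pdhb (41.0 and 42.3), Ogdh (39.1 and 37.6), Cs (38.5 and 38.5), Got2 (38.4 and 38.2), Me2 (33.2 and 32.7) and Dld (32.8 and 36.3). Idh3g, Got1 (29.9 and 29.3), Me1 (29.8 and 31.1), Idh3b, Glud1 (26.7 and 28.1), Idh3a and Aco1 (22.7 and 23.4) followed. Below 20 RPKM in both libraries lay Pdha1, Dlst, Sucla2, Dlat, Idh1, Pdk3, Suclg1, Suclg2, Gpd1, Pdhx, Pdk2, Pdk1 and Pdp1, and Me3 came last (0.649 and 0.698). No member moved by more than 2 places between the libraries and 16 kept their place. In the control library, 18 of the 33 neighbouring pairs in this order had overlapping intervals; the differences between neighbours were not tested.

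Within the pyruvate dehydrogenase complex the levels per length with the control vector were 41.0 RPKM for Pdhb, 32.8 for Dld, 17.5 for Pdha1, 15.1 for Dlat and 6.91 for Pdhx. For Suclg1 and Suclg2 they were 9.20 and 9.19 RPKM, and for Sucla2 15.5. Me2 is the 1 member whose position in the deposited table differs from GENCODE M21, with a deposited length of 2455 bases against 7252 in that annotation. The order of Me1 and Me2 therefore depends on the length used: Me1 held 46.8% of the malic enzyme level per deposited length with the control vector and 71.5% per GENCODE length, and Me2 52.2% and 27.0%.

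**Figure D3:**
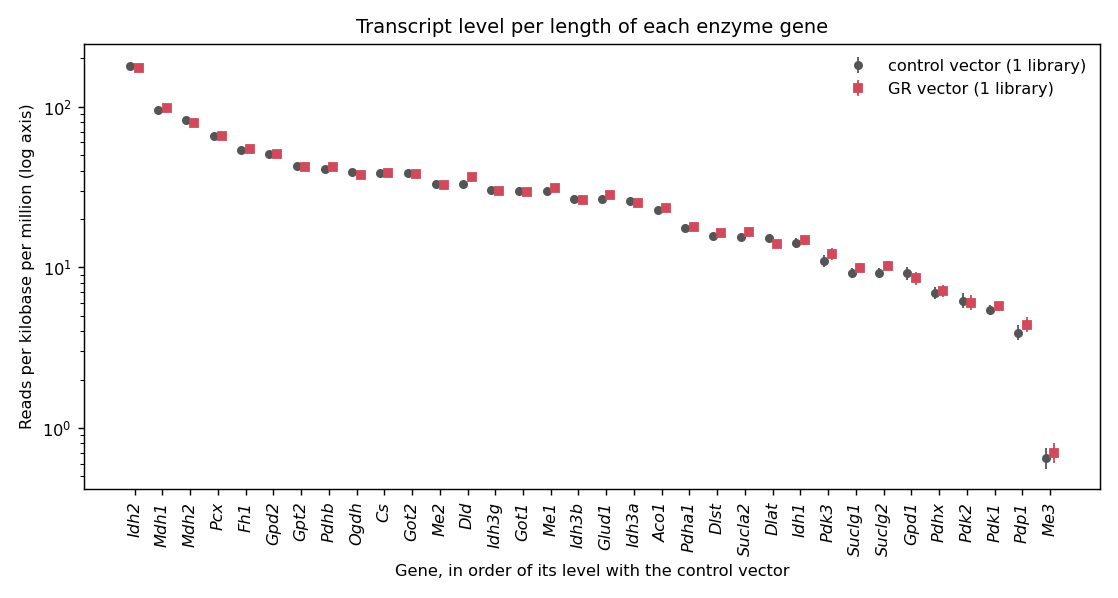
Level per length of each of the 34 genes in RPKM (log axis), ordered by the control library, for the control vector (circles) and the GR vector (squares), 1 library each. Bars are exact 95% counting intervals; Idh2 stands highest and Me3 lowest in both libraries.

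Log2 fold changes were lower in genes of higher GC content. Over the 34 members, Pearson's r between log2 fold change and the GC content of the transcripts was -0.659. Over the 10067 genes read at least as often as the least read member it was -0.334, and all points share the same pair of libraries. Of the 6 members with a GC content under 45%, 5 had folds above 1, and of the 9 over 52%, 8 had folds below 1 (limits chosen after the values were seen). The trend, drawn through the genes averaging 100 reads or more, was worth 0.07 on the log2 scale at the GC content of Dld. With it removed, the median log2 fold change of the members was 0.02, 21 members lay above 0, and 0 passed the library test. The part of GC content in the results for single genes was not tested beyond this correction.

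**Figure D4:**
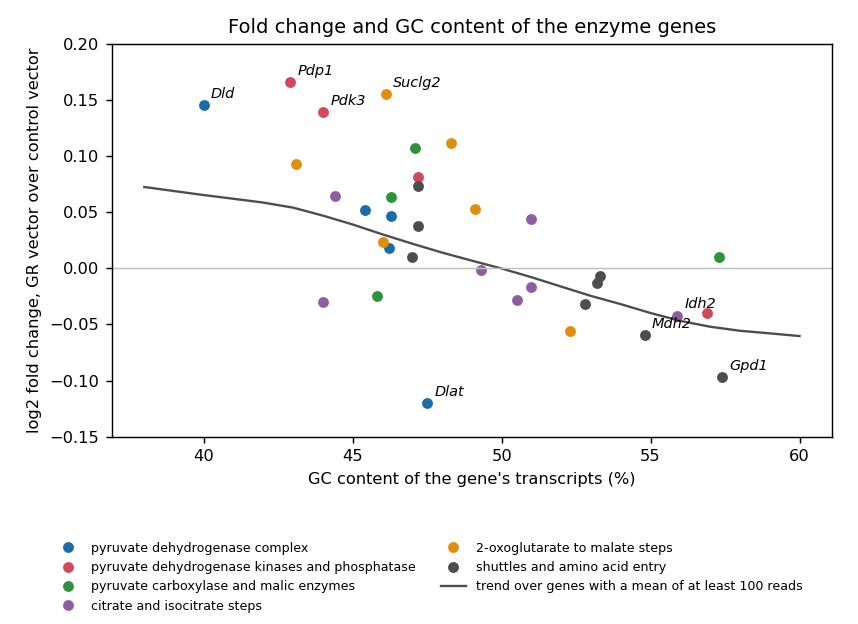
log2 of the fold (GR vector over control vector) against the GC content of each gene's transcripts (%), 1 point per gene, coloured by role, 1 library per group. The line is the trend over genes averaging 100 reads or more; Dld has the lowest GC content, and Dlat lies farthest below the line.

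Other genes of the same pathway were taken from 6 lists. Of 66 measured genes, 29 had folds above 1 and 37 below, and the library test called 1 higher and 1 lower, against 2.72% of all genes. In the rest of the cycle 0 of 12 passed: Sdha, the flavoprotein of succinate dehydrogenase, had 5575 and 5381 reads (fold 0.968, 0.932 to 1.01). Around pyruvate, 1 of 11 passed: Ldha, lactate dehydrogenase A, which beta cells normally keep low, had 907 and 1085 reads and a fold of 1.2 (1.097 to 1.312, library test adjusted p = 0.00570). Its fold was 1.21 with the GC trend removed, and 19.6% of its 31-base stretches are shared. Pkm, pyruvate kinase, had 23405 and 23115 reads (fold 0.990; 34.7% of its 31-base stretches shared) and Pck2, the mitochondrial phosphoenolpyruvate carboxykinase, 7644 and 7290 (fold 0.956, 0.926 to 0.988). In this list Pck1 has no row in the table.

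Among carriers and shuttles 1 of 10 passed. Slc25a10, the mitochondrial dicarboxylate carrier that exchanges malate and succinate for phosphate, had 1777 and 1576 reads, a fold of 0.889 (0.831 to 0.952, library test adjusted p = 0.0347). With the GC trend removed its fold was 0.926 (0.865 to 0.992) and it did not pass (adjusted p = 0.381). The citrate carrier gene Slc25a1 had 3494 and 3484 reads (fold 1.00) and the oxoglutarate carrier gene Slc25a11 2251 and 2268 (fold 1.01). Of the aspartate-glutamate carriers, singled out after the values were seen, Slc25a12 had 2088 and 2248 reads (15.3 and 16.5 RPKM) and Slc25a13 6 and 6 (0.0851 and 0.0854 RPKM).

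In the list of citrate export and glutamine use 0 of 10 passed. Acly, ATP citrate lyase, had 71192 and 70601 reads (fold 0.995, 0.984 to 1.01), and Glul, glutamine synthetase, 10650 and 10280 (fold 0.968, 0.942 to 0.995). Of the lipoate and cofactor enzymes 0 of 10 passed, with Lias, lipoic acid synthetase, at 517 and 520 reads (fold 1.01) and Mecr, an enzyme of mitochondrial fatty acid synthesis, at 522 and 506 (fold 0.972). Of the regulators 0 of 13 passed, with Hif1a at 2241 and 2330 reads (fold 1.04). Medians of the log2 fold change in the 6 lists lay between -0.05, for the rest of the cycle, and 0.0079, for citrate export and glutamine use.

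The authors' deposited enrichment report, which lists sets on the side of the GR library, holds sets that overlap these genes. There the citrate cycle set had 32 genes, a normalized enrichment score of 1.00 with a q-value of 0.980, the pyruvate metabolism set 38 genes, a score of 1.01 and a q of 0.893, and the set of alanine, aspartate and glutamate metabolism 36 genes, a score of 1.02 and a q of 0.982. The nominal p in the authors' deposited report is given as 0 for each of the 3 sets, so the nominal p and the q-value point different ways, and neither rests on replicates.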

How the data were processed

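RNA was sequenced in 2 libraries of transfected MIN6 cells, 1 per group. The authors deposited a signal per gene (read counts scaled by 1 factor per library), with log2 fold changes and p-values, and a set report with enrichment scores, p-values and q-values. The submitters' processing notes name DESeq2 1.10.1; aligner, counter, strand handling and build are stated in no label or header. Whole reads were recovered for 100% of values (tolerance 0.01 reads), 18537326 and 18525668 in total. An exact test of edgeR 4.0.16 with a preset dispersion of 0.04 gave the deposited p-values to within 4.45e-08, so these rest on no replicate spread; a test of replicate counts could not be run.

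Folds were computed from reads and library sizes scaled by TMM, with 95% intervals by the exact Clopper-Pearson method, and log2 fold changes with a pseudocount of 0.5. The library test was an exact two-sided binomial test (scipy 1.17.1), Benjamini-Hochberg adjusted over all 21542 genes with no filter on low reads, checked on simulated libraries. Intervals cover counting error only. RPKM used the deposited gene length, which equals the exon union of GENCODE M21 (GRCm38) for 32 of 34 members. Positions are those of the deposited table and equal that annotation for 33 of 34. GC content and shared 31-mers came from its transcripts; the GC trend was a lowess curve (span 0.3). Counts of genes sharing at least 25% of 31-mers were taken as uncertain. Promoters are from RefSeq (GRCm38.p6).

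The members and lists were chosen with earlier results of these data known. All members are named; of the other pathway genes, those past the library test and the 2 most read of each list, apart from 2 genes not reported here. Alternatives were other scalings, filters, thresholds, pseudocounts, dispersions, gene lengths and the GC correction.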

Additional observations from a re-analysis of the deposited data

How the results depend on the processing

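The 1 member past the library test was 1 with library totals or the median of ratios as scaling, with only genes of a mean of at least 50 reads tested, and with the 2 members sharing 25% or more of their 31-mers left out. It was 0 with the GC trend removed and 0 at an adjusted p under 0.01. The members past the edgeR exact test were 0 at preset dispersions of 0.01, 0.04 and 0.16. The median log2 fold change over members lay between 0.0169 and 0.0211 in all alternatives. Other pathway genes past the library test numbered 2 under each scaling and 1 with the GC trend removed, where Slc25a10 was lost. The correction itself shifts these folds; beyond that the cause was not tested. Single folds left their interval in 1 of 34 members with the GC trend removed (Idh2, 1.00) and in 0 with either other scaling. Shares within families moved when divided by gene length, except for Idh1 and Idh2. No paired analysis was possible because each group has 1 library. Sharing of 31-mers and the GENCODE lengths were added after the data were seen. Leaving out a replicate was not possible. Depth limits what could be called: the smallest fold above 1 that passes the library test ran from 1.05 at the reads of Idh2 to 1.38 at those of Me3.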
